A study of Rattus norvegicus with 3 samples.

Results

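The amacrine transmitter identity genes are 9 of the 18425 genes in the deposited table, taken by symbol: Gad1, Gad2, Slc32a1, Slc6a9, Chat, Slc18a3, Slc5a7, Th and Calb2. All 9 were found, and all 9 had a mean of at least 10 reads over the libraries. Retinal RNA was sequenced at postnatal day 4 (P4) in wild-type Sprague Dawley rats that had received 1 µl into the vitreous at P1. The Buffer library came from eyes given citrate buffer, the vehicle of the drug, the Saline library from eyes given saline, and the STZ library from eyes given 10 µg of streptozotocin (STZ) in that buffer. STZ is a glucosamine-linked nitrosourea that alkylates DNA, and the comparisons ask how retinal transcripts differed 3 days later. The number of animals or retinas behind a library is not given in the sources used here. For its injections at P1, the paper describes STZ in right eyes and buffer in left eyes of the same animals. Whether the Buffer and STZ libraries came from such pairs is not stated there.

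Amacrine cells are the interneurons of the inner retina, and most of them are inhibitory. Gad1 and Gad2 encode GAD67 and GAD65, the glutamate decarboxylases that make GABA, and Slc32a1 encodes VGAT, which loads both GABA and glycine into synaptic vesicles. Slc6a9 encodes the glycine transporter GlyT1, which marks glycinergic amacrine cells. Starburst amacrine cells release acetylcholine together with GABA and use choline acetyltransferase (Chat), the vesicular acetylcholine transporter (Slc18a3) and the choline transporter that brings choline back into the terminal (Slc5a7). A sparse amacrine type makes dopamine through tyrosine hydroxylase (Th), and calretinin (Calb2), a calcium-binding protein, is found in many amacrine cells and in ganglion cells. In the neonatal rodent retina amacrine cells have largely been born, while synapses and transmitter systems are still maturing.

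Each condition had 1 library, so no difference below has a replicate check, and none carries a p-value or a standard error. The libraries held 21992701 reads with buffer, 21977846 with saline and 22031241 with STZ, after rounding of the estimated counts. The fold is the ratio of 2 libraries' FPKM (fragments normalised for gene length and library size) after 1 is added to each value, and STZ/buffer, STZ/saline and saline/buffer name the 3 comparisons. A gene was called by the fold rule when its log2 fold lay above 0.62 or below -0.62. Markers of amacrine cells were read in all 3 libraries, with 28622 to 33537 reads over 9 markers. The libraries also differed in other tissue. The 4 lens markers summed to 175 reads with buffer, 402 with saline and 2264 with STZ, and the 6 markers of pigment and ciliary epithelium summed to 508, 1751 and 553 reads. The 7 progenitor markers summed to 65784 reads with buffer, 66126 with saline and 47016 with STZ, and the 5 microglial markers to 906, 1039 and 2142 reads. By the fold rule 3 of 4 lens markers and 4 of 5 microglial markers were higher and 2 of 7 progenitor markers lower in STZ/buffer, and 4 of 6 pigment and ciliary markers were higher in saline/buffer, with 1 of these 6 at 0 reads in Buffer. Photoreceptor markers summed to 24188, 22665 and 28918 reads over 5 genes, and bipolar markers to 4467, 4323 and 5763 over 5, so that the share of these markers in STZ/buffer was 1.19 and 1.29 times that of the control. The 3 astrocyte markers summed to 1045, 1044 and 493 reads, with 2 of 3 called lower in STZ/buffer, and the 2 blood markers to 444, 575 and 332. The part of these differences in the results below was not tested. In RNA from whole retina, fewer cells of a type and less RNA per cell cannot be told apart.

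The 9 genes fell into an abundant and a scarce group when levels were compared per length, as FPKM. Calb2, Slc32a1, Slc6a9, Gad1 and Gad2 lay between 10.94 and 136.36 FPKM over the 3 libraries, and the cholinergic genes and Th lay between 0.62 and 2.10 FPKM. The order was the same in every library, with Calb2 first, followed by Slc32a1, Slc6a9, Gad1, Gad2, Chat, Slc18a3, Th and Slc5a7. The ranges of neighbouring genes over the 3 libraries did not overlap, except for Th and Slc5a7 at the bottom. Among the 14886 genes with a mean of at least 10 reads, 94.8% to 96.1% had a lower FPKM than Calb2, and 46.6% to 51.8% had a lower FPKM than Gad2. Only 8.76% to 13.6% of these genes lay below Slc5a7.

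**Figure D1:**
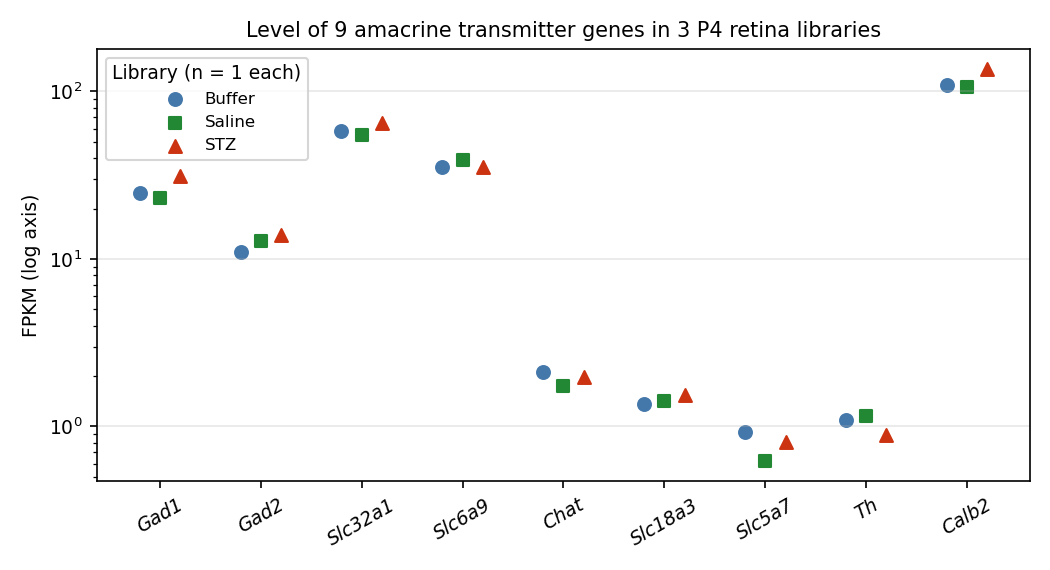
FPKM (vertical log axis) of the 9 genes in the Buffer (blue circles), Saline (green squares) and STZ (red triangles) libraries, 1 library each. Calb2 lies at 106.46 to 136.36 FPKM, and the 4 genes Chat, Slc18a3, Slc5a7 and Th lie at 0.62 to 2.10 FPKM in all libraries.

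The promoters of an abundant GABA pair and of a scarce cholinergic gene are shown as examples of the abundant and the scarce transmitter genes. RefSeq promoter sequences were matched for 8 of the 9 genes. The 250 bases before the annotated start are given 5′ to 3′ on the gene's strand, in the build GRCr8, for Gad2 (chr17:89671468-89671717, plus strand), Slc32a1 (chr3:167686995-167687244, plus strand) and Chat (chr16:7723417-7723666, minus strand). Capitals mark matches to the E-box letters CANNTG, the letters that basic helix-loop-helix factors recognise.
Gad2: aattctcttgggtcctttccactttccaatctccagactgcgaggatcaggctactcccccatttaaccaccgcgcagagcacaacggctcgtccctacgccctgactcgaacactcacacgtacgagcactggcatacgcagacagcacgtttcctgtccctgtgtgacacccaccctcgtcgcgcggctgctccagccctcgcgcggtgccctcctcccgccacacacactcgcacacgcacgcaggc
Slc32a1: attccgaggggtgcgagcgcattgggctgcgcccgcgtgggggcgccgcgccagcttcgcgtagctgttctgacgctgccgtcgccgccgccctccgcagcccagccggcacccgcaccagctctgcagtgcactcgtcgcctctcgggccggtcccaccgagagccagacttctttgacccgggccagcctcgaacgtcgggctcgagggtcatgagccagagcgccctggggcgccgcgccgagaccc
Chat: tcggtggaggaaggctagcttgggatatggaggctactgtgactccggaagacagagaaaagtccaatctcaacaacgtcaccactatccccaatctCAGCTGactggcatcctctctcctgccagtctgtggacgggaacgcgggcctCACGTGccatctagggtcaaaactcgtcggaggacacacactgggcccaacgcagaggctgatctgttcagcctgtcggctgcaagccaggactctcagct
Chat held 2 such matches, and Gad2 and Slc32a1 held 0, on a search of both strands. Of the other abundant genes, Slc6a9 held 2 and Gad1 held 1. The windows of Gad1, Slc6a9 and Th reached 192, 54 and 58 bases into the annotated gene. The match of Gad1 lay in that part, not before the gene. The matches thus did not divide the abundant from the scarce genes. The 250 bases held at least 1 match in 65.2% of 27457 promoters of this length. The windows of Gad2 and Slc32a1 were 62.0% and 73.6% G or C, against 57.2% for Chat, and Slc32a1 held 1 GC box (GGGCGG, either strand), which 32.4% of promoters held. Counted before the annotated gene only, the abundant Gad1 and Slc6a9 were 55.2% and 59.7% G or C. The scarce Slc18a3, Slc5a7 and Th were 61.6%, 53.2% and 64.1%. GC boxes numbered 0 in Gad2 and Chat and 2 in Slc6a9 and Slc18a3. Neither measure divided the abundant from the scarce genes. The cyclic AMP response element TGACGTCA was present in the window of Th alone among the 8 genes, and in 1.7% of all promoters. These matches describe letters in a window and were not tested as binding sites.

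Transcripts for making and packaging GABA had the highest values in the STZ library. Gad1 (gene identifier 24379) read 24.66 FPKM with buffer, 23.02 with saline and 31.47 with STZ. Gad2 (24380 in the same numbering) read 10.94, 12.77 and 13.82 FPKM, and Slc32a1 (83612) read 58.45, 54.84 and 65.09 FPKM. STZ lay above both controls for all 3 genes, and Gad2 in Saline was the closest to it. Against buffer and saline in turn, the folds were 1.27 and 1.35 for Gad1, 1.24 and 1.08 for Gad2, and 1.11 and 1.18 for Slc32a1, so none passed the fold rule.

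Counting error was small for these 3 genes. The share of all reads that fell on Gad1, from 1606 reads with buffer, 1491 with saline and 2055 with STZ, was 1.28 times higher in STZ than in Buffer, with a 95% counting interval of 1.20 to 1.36. Against saline the ratio was 1.37 (1.29 to 1.47). The interval covers the counting of reads between 2 libraries only, and says nothing of the spread between animals. For Slc32a1, with 2468, 2279 and 2747 reads, the ratios were 1.11 (1.05 to 1.17) and 1.20 (1.14 to 1.27). For Gad2, with 417, 486 and 528 reads, the ratio was 1.26 (1.11 to 1.44) against buffer, and against saline it was 1.08 (0.956 to 1.23), an interval that holds 1. The controls also differed beyond counting error, with Gad2 at 1.17 (1.02 to 1.33) in saline/buffer, Gad1 at 0.929 (0.865 to 0.997) and Slc32a1 at 0.924 (0.873 to 0.979).

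The balance between the 2 decarboxylases was different in Saline rather than in STZ. The FPKM of Gad1 was 2.25 times that of Gad2 with buffer, 1.80 times with saline and 2.28 times with STZ. The read ratios, which also carry gene length and serve only to compare libraries, had counting intervals of 3.46 to 4.30, 2.77 to 3.41 and 3.54 to 4.29. The intervals of Buffer and STZ overlap, and Saline lay below both. The level of Slc32a1, for packaging, relative to that of Gad1, for synthesis, was different in STZ. There the FPKM of Slc32a1 was 2.07 times that of Gad1, beside 2.37 times with buffer and 2.38 times with saline. Counting intervals of the read ratio were 1.26 to 1.42 in STZ, 1.44 to 1.64 in Buffer and 1.43 to 1.63 in Saline, so the STZ library lay below both controls. This did not hold for Gad2, for which no interval of such a ratio was computed. The count ratio of Slc32a1 was below that of Gad2 in STZ/buffer (1.11 and 1.26) and above it in STZ/saline (1.20 and 1.08). Relative to Gad2, Slc32a1 in STZ thus lay between the controls. Together the 3 genes held 4491 reads with buffer, 4256 with saline and 5330 with STZ, a ratio of 1.18 (1.14 to 1.23) in STZ/buffer and 1.25 (1.20 to 1.30) against saline.

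Slc6a9, the glycine transporter gene (116509), did not follow the GABA genes. It read 35.23 FPKM with buffer, 39.08 with saline and 35.15 with STZ, from 2286, 2533 and 2285 reads. Buffer and STZ were nearly equal and Saline stood above both. The fold was 0.998 in STZ/buffer and 0.902 against saline, and the count ratios were 0.998 (0.941 to 1.06) and 0.900 (0.850 to 0.953). Saline against buffer was 1.11 (1.05 to 1.17) by count, so the 2 control libraries were further apart than STZ and its vehicle control. Relative to Slc32a1, the vesicular transporter that glycinergic cells also use, Slc6a9 gave 0.926 reads with buffer, 1.11 with saline and 0.832 with STZ, with intervals of 0.875 to 0.981, 1.05 to 1.18 and 0.787 to 0.880. This ratio was lowest in STZ, and its gap between Buffer and Saline was wider than its gap between Buffer and STZ. GlyT1 is also made by glia in much of the nervous system, and 7 Müller glia markers summed to 19580, 20047 and 20583 reads. Without Apoe, which microglia also make, they summed to 18619, 18598 and 17278 reads. The median log2 fold of all 7, Apoe included, was -0.02 in STZ/buffer and -0.21 in STZ/saline. The part of glia in the level of Slc6a9 was not tested.

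The cholinergic genes were read at low depth and showed no difference beyond counting error between STZ and either control. Chat (290567) read 2.10 FPKM with buffer, 1.75 with saline and 1.98 with STZ, from 151, 126 and 143 reads. Slc18a3 (60422) had 79, 82 and 89 reads, which was 1.37 FPKM with buffer and 1.42 with saline, and its fold with STZ was 1.07 over the former and 1.05 over the latter. Slc5a7 (85426) read 0.93, 0.62 and 0.81 FPKM, from 85, 59 and 81 reads. STZ lay between the controls for Chat and Slc5a7 and slightly above both for Slc18a3. The count ratios in STZ/buffer were 0.945 (0.747 to 1.20) for Chat, 1.12 (0.821 to 1.542) for Slc18a3 and 0.951 (0.693 to 1.31) for Slc5a7. Relative to saline they were 1.13 (0.885 to 1.45), 1.08 (0.793 to 1.48) and 1.37 (0.967 to 1.95). All 6 intervals hold 1, so differences within these bounds were not detectable at this depth. The sign for Chat and for Slc5a7 turned when STZ was set against the mean of both controls, to a log2 fold of 0.027 and 0.028.

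The 3 cholinergic genes together held 315 reads with buffer, 267 with saline and 313 with STZ. The ratio was 0.992 (0.846 to 1.16) in STZ/buffer and 1.17 (0.990 to 1.38) against saline. Slc5a7 differed between the controls, at 0.695 (0.490 to 0.980) in saline/buffer by count, while its fold on the FPKM scale was 0.839. The deposited FPKM and counts of Slc5a7 imply a length of 4156 bases with buffer, 4330 with saline and 4539 with STZ, so that the FPKM and count ratios of this gene do not describe the same change. Slc18a3 lies inside the interval of Chat on the same strand in GRCr8, as is usual for this cholinergic locus, and the counting of overlapping reads is not given in the sources used here. The split of reads between Chat and Slc18a3 is therefore uncertain. The reads of Chat per read of Slc18a3 had overlapping counting intervals, of 1.45 to 2.54 with buffer, 1.15 to 2.05 with saline and 1.22 to 2.12 with STZ. The 4 starburst markers Megf10, Isl1, Fezf1 and Sox2, of which Sox2 is also a progenitor and glial gene, summed to 5870 reads with buffer, 5743 with saline and 5510 with STZ, and 0 of the 4 passed the fold rule in any comparison. Without Sox2 the sums were 4081, 3912 and 4114 reads.

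Th (25085), which encodes the rate-limiting enzyme of dopamine synthesis, had the fewest reads of the 9 genes. It read 1.10 FPKM with buffer, 1.16 with saline and 0.89 with STZ, from 37, 39 and 30 reads. STZ was the lowest of the 3 libraries, with folds of 0.900 relative to buffer and 0.875 relative to saline. The count ratios were 0.809 (0.483 to 1.35) and 0.767 (0.460 to 1.27), so a difference from either control was not detectable at this depth. Sympathetic nerve fibres also use tyrosine hydroxylase. Their markers Dbh and Phox2a were at or under 3 reads in every library, with 1, 0 and 1 reads for Dbh and 0, 0 and 1 for Phox2a. The noradrenaline transporter gene Slc6a2 had 60, 142 and 102 reads and passed the fold rule in saline/buffer, at 1.80. The whole list of 5 markers summed to 611, 713 and 809 reads, mostly from Prph, a gene of peripheral and other neurons, with 549, 567 and 703. The part of nerve fibres in the level of Th was not tested.

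Calb2 (117059) was the most abundant of the 9 genes and had one of the clearest differences between STZ and both controls. It read 108.71 FPKM with buffer, 106.46 with saline and 136.36 with STZ, from 2885, 2820 and 3627 reads. The controls lay close together and STZ lay above them. The fold was 1.25 against buffer and 1.28 against saline, below the threshold. The count ratios were 1.25 (1.19 to 1.32) and 1.28 (1.22 to 1.35), and saline/buffer was 0.978 (0.928 to 1.03). Ganglion cells, which also hold calretinin, had marker sums of 8851 reads with buffer, 8266 with saline and 9858 with STZ over 10 markers, a ratio of 1.11 in STZ/buffer and 1.19 against saline. The 9 amacrine markers summed to 29489, 28622 and 33537 reads, with ratios of 1.14 and 1.17. The ratios were 1.08 and 1.09 without Tfap2b, and 1.21 and 1.30 without Pax6. The part of either cell type in the level of Calb2 was not tested.

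**Figure D2:**
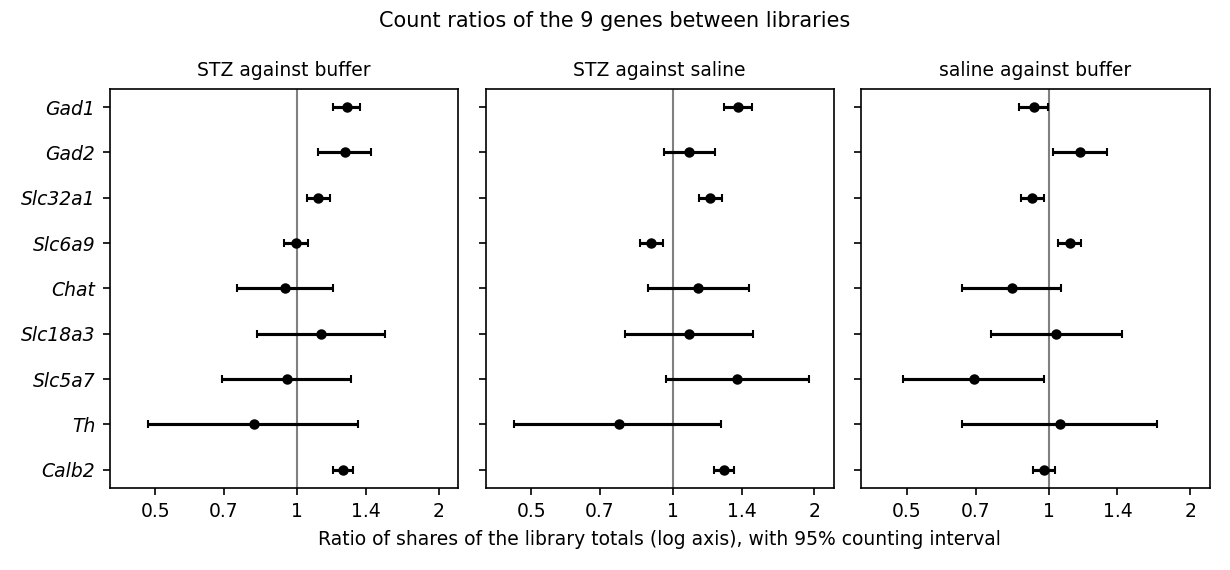
Ratio of each gene's share of the library totals (horizontal log axis) in STZ/buffer, STZ/saline and saline/buffer, with bars for the 95% counting interval of 1 library against 1. Gad1 (1.28), Gad2 (1.26), Slc32a1 (1.11) and Calb2 (1.25) lie above 1 in STZ/buffer, and the intervals of the cholinergic genes and Th hold 1 there.

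By the fold rule, 0 of the 9 genes differed in any of the 3 comparisons. The rule called 3.29% of all 18425 genes in STZ/buffer, 3.78% in STZ/saline and 1.43% in saline/buffer. The folds of the 9 genes ran from 0.900 to 1.27 in STZ/buffer, from 0.875 to 1.35 in STZ/saline and from 0.839 to 1.15 in saline/buffer. Their median log2 fold was 0.10 in STZ/buffer, beside a median of 0.028 over the 14886 genes with a mean of at least 10 reads. In STZ/saline the medians were 0.12 and 0.013, and in saline/buffer -0.03 and 0.016. Each library enters 2 of the comparisons, which are therefore not independent.

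Counting intervals that exclude 1 were common in the whole table. They were found for 4 of the 9 genes in STZ/buffer, all above 1, beside 45% of the genes with a mean of at least 10 reads (26.2% above and 18.8% below 1). In STZ/saline they were found for 4 of 9, 3 above 1 and Slc6a9 below it, beside 50.4% (26.9% above and 23.5% below). In saline/buffer they were found for 5 of 9, with Gad2 and Slc6a9 above 1 and Gad1, Slc32a1 and Slc5a7 below, beside 27.8% (15.9% above and 12% below). The abundant genes were the ones with narrow intervals, and the share of the 9 genes in STZ/buffer was near that of the table. In that comparison the fold of Gad1 was above that of 91.5% of genes, Calb2 above 90.6%, Gad2 above 89.8% and Slc32a1 above 73.4%. Slc18a3 lay above 64.5%, Slc6a9 above 42.7%, Chat above 31.7%, Slc5a7 above 25.2% and Th above 16.9%.

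**Figure D3:**
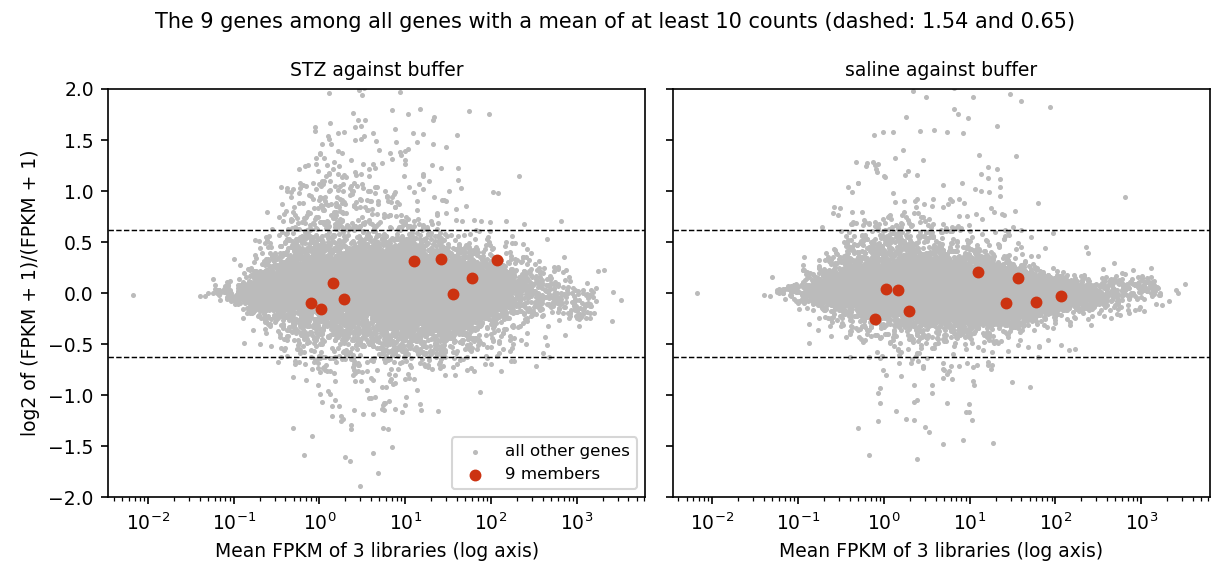
Log2 of the fold (vertical axis) against the mean FPKM of the 3 libraries (horizontal log axis) for the 14886 genes with a mean of at least 10 reads in STZ/buffer (left) and saline/buffer (right), with the 9 genes in red and dashed lines at the thresholds of 0.62 and -0.62. All 9 genes lie between the dashed lines, and 41 genes on the left and 20 on the right lie beyond the vertical axis.

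Genes that act with the 9 were described from lists. Of 13 genes of GABA and glycine handling, 1 passed the fold rule in STZ/buffer, and it was higher. This was Slc6a13, the GABA transporter GAT2, which is also abundant in epithelia and meninges, with 12 reads with buffer, 187 with saline and 49 with STZ. It passed the rule in all 3 comparisons, with folds of 1.64 in STZ/buffer, 0.397 in STZ/saline and 4.13 in saline/buffer. The pigment and ciliary markers summed to 508 reads with buffer, 1751 with saline and 553 with STZ. The part of such tissue in the level of Slc6a13 was not tested. The median log2 fold of the list was 0.09 in STZ/buffer, 0.11 in STZ/saline and -0.07 in saline/buffer. Slc6a5, the neuronal glycine transporter GlyT2, had 3, 1 and 0 reads, which is at or under 3 reads in every library, and was named after its values were seen.

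None of 11 genes of acetylcholine handling and nicotinic receptors passed the rule in any comparison, with medians of 0.03, -0.01 and 0.02 in log2 for the comparisons in the same order. The highest of them was the receptor subunit Chrna4, at 27.41 FPKM with buffer, 25.36 with saline and 24.17 with STZ. None of the 13 genes of dopamine and tetrahydrobiopterin metabolism in the table passed it either, with medians of 0.18, 0.06 and 0.03, and Slc6a3 was not analysed here. Qdpr, which regenerates the cofactor of tyrosine hydroxylase, was the highest at 62.57, 64.45 and 62.64 FPKM. Ddc, which turns DOPA into dopamine and was named after its values were seen, had only 7, 9 and 11 reads, so that both enzymes from tyrosine to dopamine were read at low counts.

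**Figure D4:**
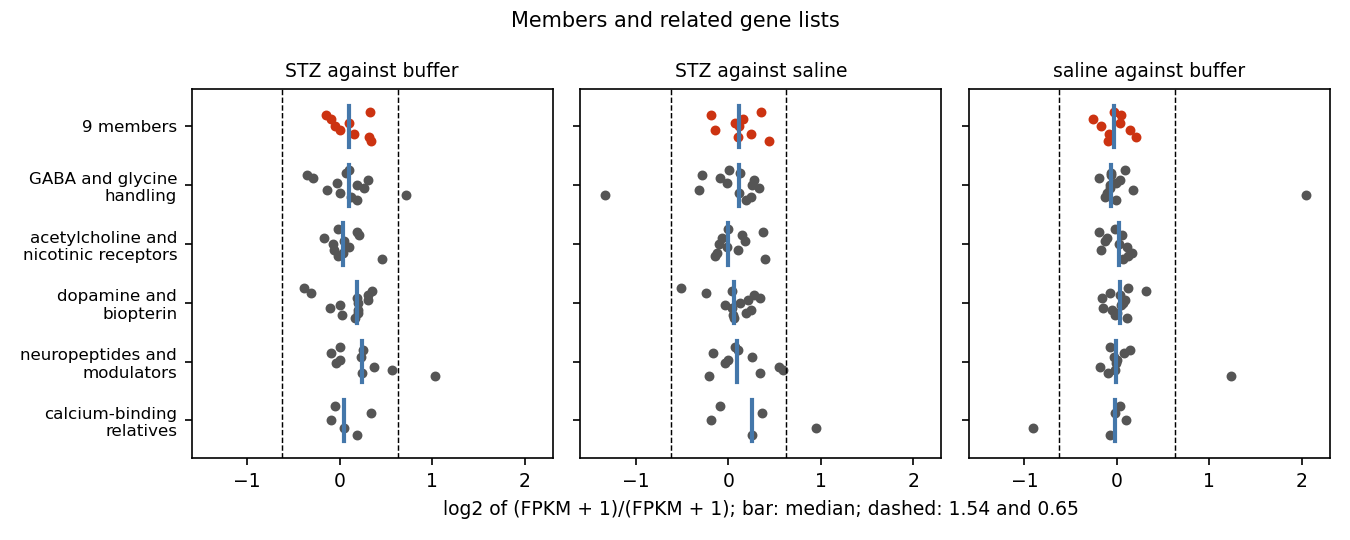
Log2 of the fold (horizontal axis) of the 9 genes (red) and of 5 lists of related genes (grey) in the 3 comparisons, with bars at the median and dashed lines at 0.62 and -0.62. The 9 genes have medians of 0.10, 0.12 and -0.03, and the points beyond the lines are Slc6a13, Npy and Pvalb.

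Relative to an amacrine marker in the same library, Gad1 and Calb2 had overlapping counting intervals in all 3 libraries, while Slc32a1, Gad2 and Slc6a9 did not. The share of all genes without such overlap was not computed, so this is no trait particular to these genes. Tfap2b, the AP-2 factor of amacrine and horizontal cells, had 10366 reads with buffer, 9688 with saline and 12763 with STZ. Its fold of 1.21 in STZ/buffer was of the size of the folds of Gad1, Gad2 and Calb2. The 9 amacrine markers had folds from 1.01 to 1.36 in STZ/buffer and from 0.777 to 1.63 in STZ/saline. Ratios to another marker could therefore differ. Per read of Tfap2b, Gad1 gave 0.155 reads with buffer, 0.154 with saline and 0.161 with STZ, and Calb2 gave 0.278, 0.291 and 0.284. Slc32a1 gave 0.238, 0.235 and 0.215, with an STZ interval of 0.206 to 0.224 that lay below those of Buffer (0.228 to 0.249) and Saline (0.225 to 0.246). Gad2 gave 0.0402 with buffer, 0.0502 with saline and 0.0414 with STZ, and its Saline interval of 0.0457 to 0.0550 lay above those of Buffer (0.0364 to 0.0444) and STZ (0.0378 to 0.0451).

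Slc6a9 had the widest spread of the 6 genes set against Tfap2b. It gave 0.221 reads per read of Tfap2b with buffer (0.211 to 0.231), 0.261 with saline (0.250 to 0.273) and 0.179 with STZ (0.171 to 0.187), and the 3 intervals did not overlap. The distance between the controls was about as wide as that between Buffer and STZ. Chat gave 0.0146, 0.0130 and 0.0112 reads, with intervals of 0.0123 to 0.0171 in Buffer and 0.00943 to 0.0132 in STZ that overlap. These ratios share their denominator and rest on 1 marker gene. The sum of 4 horizontal cell markers, a cell type that also uses Tfap2b and VGAT, was 4851 reads with buffer, 4499 with saline and 4123 with STZ, and 1 of the 4, Prox1, held most of them. Without Prox1 the sums were 554, 513 and 622 reads, so that the direction of the sum turns with this gene. The part of horizontal cells in the levels of Slc32a1 and Tfap2b was not tested.

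**Figure D5:**
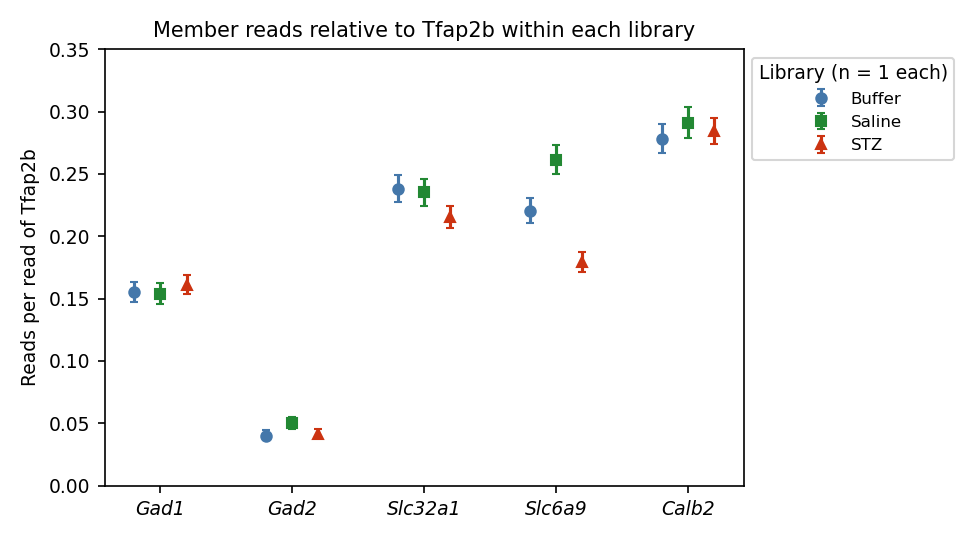
Reads of the 5 abundant genes per read of Tfap2b (vertical axis from 0) in the Buffer (blue circles), Saline (green squares) and STZ (red triangles) libraries, with bars for the 95% counting interval. Slc6a9 runs from 0.179 in STZ to 0.261 in Saline, while Gad1 stays between 0.154 and 0.161.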

How the data were processed

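RNA from dissected P4 retinas was made into libraries with an Illumina TruSeq RNA kit, which does not mark strand, and sequenced on an Illumina HiSeq, 1 library per group. The authors trimmed the reads after FastQC, mapped them with TopHat2 allowing up to 2 mismatches, and discarded reads with several genomic locations. The submitters' processing notes name the build rn6. The annotation is not given in the sources used here. The authors deposited FPKM, from a custom R script, with TPM and an estimated read count for each gene. The deposited estimated counts were fractional for 12.9% to 13.2% of values, and for 1 of the 9 genes in 1 library, and were rounded. The deposited TPM entered only as an alternative. The table of all libraries and the 3 library tables held equal values.

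Folds were (FPKM + 1)/(FPKM + 1), called above 1.54 or below 0.65. The pseudocount of 1 brings folds of genes near 1 FPKM closer to 1. Count ratios are ratios of shares of the library totals with exact Clopper-Pearson 95% intervals. Libraries carried no molecular identifiers, so PCR copies may be counted as separate reads, and intervals cover counting error only. Ratios of 2 genes within a library use the same interval. No count model was fitted and no p-value computed. The calculations were tested on simulated data. The 9 genes, the 5 lists of related genes and the 14 lists of cell type markers were chosen with earlier results of these data known. All 9 genes are named, and from each related list the genes past the fold rule in any comparison with a mean of at least 10 reads and the gene of highest mean FPKM. For 1 list the latter gene is not reported here. Marker lists are given as sums, and each gene of a list was left out in turn, a step added after the data were seen. Markers named for this were chosen after their values were seen. E-box and other motif searches used RefSeq promoters of GRCr8 and no coordinates of rn6. Alternatives were a pseudocount of 0.1, CPM or TPM in place of FPKM, TMM factors of edgeR 4.0.16 or size factors of DESeq2 1.42.0 in R 4.3.3, a minimum mean of 10 reads, the mean of both controls, thresholds of 2 and 0.5, and a counting interval that excludes 1. Python 3.11.15 with numpy 2.4.6, pandas 2.3.3, scipy 1.17.1 and matplotlib 3.10.9 was used.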

Additional observations from a re-analysis of the deposited data

How the results depend on the processing

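The number of the 9 genes past the fold rule was 0 in all 3 comparisons under a pseudocount of 0.1, CPM, TPM, TMM or DESeq2 scaling, the minimum of 10 reads and thresholds of 2 and 0.5, and under the mean of both controls, which applies to STZ/buffer only. Calling a gene by a counting interval that excludes 1 gave 4 in STZ/buffer, 4 in STZ/saline and 5 in saline/buffer. The median log2 fold of the 9 genes stayed between 0.076 and 0.155 in STZ/buffer, between 0.104 and 0.169 in STZ/saline, and between -0.053 and -0.030 in saline/buffer. Of the single genes, Chat and Slc5a7 changed sign in STZ/buffer with the mean of both controls, and 0 others did under these settings. No paired analysis was possible because each group had 1 library, and for the same reason no replicate could be left out. Depth limits Th, Slc5a7, Slc18a3 and Chat, with 30 to 151 reads per library.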

Other observations

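Amacrine cells also release peptides, and these were described from a list of 10 genes of neuropeptides and other modulators. In STZ/buffer 1 of them passed the fold rule, and in saline/buffer 1, in both cases Npy, the neuropeptide Y gene. Npy had 64 reads with buffer, 159 with saline and 138 with STZ, with folds of 2.03 in STZ/buffer, 0.865 in STZ/saline and 2.35 in saline/buffer. The Buffer library thus had the lowest value, and the STZ and Saline libraries were closer to each other. Sst, which encodes somatostatin and was the most abundant of the list, read 41.76 FPKM with buffer, 41.18 with saline and 62.39 with STZ, and its folds of 1.48 in STZ/buffer and 1.50 in STZ/saline lay under the threshold. Its controls were nearly equal, and its count ratio in STZ/buffer was 1.50, with a counting interval of 1.31 to 1.70. The median log2 fold of the list was 0.23 in STZ/buffer, 0.09 in STZ/saline and -0.01 in saline/buffer.

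Of 5 calcium-binding relatives of calretinin, none passed the rule in STZ/buffer. Pvalb, the parvalbumin gene, passed it as higher in STZ/saline, at 1.93, and as lower in saline/buffer, at 0.535. It had only 35 reads with buffer, 22 with saline and 38 with STZ. Its count ratios in these comparisons were 1.72 (0.993 to 3.06) and 0.629 (0.352 to 1.10), and both intervals hold 1. Necab2, the highest of the list, read 85.07 FPKM with buffer, 87.16 with saline and 81.84 with STZ. The list had a median log2 fold of 0.05 in STZ/buffer, 0.26 in STZ/saline and -0.02 in saline/buffer, where Calb2 itself had folds of 1.25, 1.28 and 0.979.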
